A study of Homo sapiens with 12 samples.

Results

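The 50 elements described here are short RNA-binding test sequences that carried the most editing when no PUM2 fusion had been induced. They were taken from 1005 sequences of 8 bases listed in all 12 libraries. The editing level of an element is given as edits per 100 recorder adenosines read, with 7 such adenosines in each read. Members were chosen by this level, averaged over the 3 libraries of the non-induced fusion and the 3 libraries of ADARcdMUT alone, as the 50 highest averages. Levels in those 6 libraries are therefore a description with no test. The 6 libraries of the fusion at 25 ng and 250 ng took no part in the choice, and only levels there are tested.

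RBPscan was run in wild-type HEK293T, a cell line from human embryonic kidney. Each reporter mRNA held 1 element beside a recorder hairpin in its 3′ UTR. The groups were the hsPUM2-ADARcdMUT fusion without induction, at 25 ng and at 250 ng, and the ADARcdMUT domain by itself at 1000 ng, with 3 biological replicates each. All 12 libraries carried the same reporter pool, the series names doxycycline as the inducer, and the titles do not name the substance that the amounts refer to.

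PUM2 is a Pumilio-family repressor whose repeats each contact 1 base of the Pumilio response element, TGTANATA in DNA letters with N any base. TGTA is the part of the element that Pumilio proteins tolerate changes in least. ADAR enzymes turn adenosine into inosine in double-stranded RNA, and inosine is read as G. In a fusion of this kind the binding protein holds the deaminase near its element, and libraries without that protein, or without its induction, give the editing that is present without this tethering.

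The members fell into a few sequence families, and the sequences of those with the most to show are given here. The first set read as the consensus reversed, ATANATGT, with at most 1 change. Capitals mark bases that differ from ATANATGT at its fixed positions.
ATAGCTGT: atagCtgt
ATTGATGT: atTgatgt
ATATGTGT: atatGtgt
ATAGACGT: atagaCgt
ATACGTGT: atacGtgt
ATAGTTGT: atagTtgt
ATAGATGT: atagatgt

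The second set held TGG outside the reversed family. Those shown here hold TGG followed by ATA, which makes TGGATA, and capitals mark bases that differ from TGTANATA. The first 4 start with TGGATA and the last 2 end in it.
TGGATATA: tgGatata
TGGATAAA: tgGataAa
TGGATATT: tgGatatT
TGGATAGA: tgGataGa
CGTGGATA: CgtGgata
TTTGGATA: tTtGgata

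The third group is shown together for its TGT at the start, and capitals mark bases that differ from TGTANATA. It is not a set counted below. Its members without TGTA are counted among the remaining 15 members, and TGTTGGTA, which also starts with TGT, in the TGG set. The first 4 hold TGTA somewhere in their 8 bases, and TGTGTGTG, which has more than 2 changes, is shown without capitals.
TGTATAGC: tgtataGC
TGTAAAGC: tgtaaaGC
TGTGTGTA: tgtGtGta
TGTGTACA: tgtGtaCa
TGTGTGTG: tgtgtgtg
TGTTCAGA: tgtTcaGa
TGTCCAGA: tgtCcaGa

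By family, 31 members were double substitutions of the consensus, 15 were reversed elements, 1 was a single substitution (TGGATATA) and 3 were other sequences (TGTGTGTG, CTATATAG and ATAGTCAT). None was a consensus element. Reversed elements made up 30.0% of the members and 8.76% of all 1005 elements. Double substitutions made up 62.0% of the members and 75.2% of all elements, and single substitutions 2.0% and 8.36%. These shares follow from the choice of members and were not tested.

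In base composition the members differed from the library most in G. The members averaged 2.14 G per element, against 1.51 over all elements, and 0.58 C against 0.87. All 50 members held at least 1 G, while 140 of the 1005 elements held none. At base 4, counted from 1 at the 5′ end, G stood in 40.0% of the members and 10.8% of all elements. At base 3 it stood in 30.0% and 8.96%, and at base 7 in 44.0% and 16.2%. TGG was found in 18 of 50 members and 81 of 1005 elements, GGA in 16 and 81, GAT in 22 and 158, ATG in 15 and 140, and GTG in 8 and 64. TGT was found in 42.0% of the members and 35.1% of all elements, and TGTA was rarer in the members (5 of 50 against 185 of 1005).

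The 6-base string TGGATA occurred in 14 elements of the library, of which 11 were members. All 7 elements that start with TGGATA were members, as were 4 of the 7 that end in it (CGTGGATA, GGTGGATA, TTTGGATA and TATGGATA). The other three were TGTGGATA, AGTGGATA and TCTGGATA, at ranks 98, 108 and 179. This string was picked out after the values were seen. Among single and double substitutions of the consensus, T3G was carried by 14 members out of 76 elements that have it, A4G by 8 of 76 and T7G by 7 of 76, whereas A6C, A6T, T1A and T3A were carried by 0 of 76 each.

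In the 4 elements TGGANATA, which differ only at base 5, the choosing level differed with that base. SDs here are over the 6 choosing libraries. TGGATATA was at 2.39% (SD 0.298) and ranked 6, and TGGAGATA was at 2.07% (SD 0.194) and ranked 76. TGGAAATA was at 1.86% and ranked 574, and TGGACATA was at 1.85% and ranked 616. The lower choosing level without T at base 5 did not extend to every element with TGGA, as TGGAAACA, with A at base 5, and TGGAGAAA, with G there, were members. In the reversed family G at base 4, the position that stands for N, was found in 10 of the 15 members but in 22 of the 88 reversed elements. Without any other change, ATAGATGT was at 2.11% (SD 0.233) and ranked 48. ATAAATGT was at 1.92% (SD 0.133, rank 328), ATACATGT at 1.92% (SD 0.139, rank 343) and ATATATGT at 1.85% (SD 0.209, rank 615). These comparisons were chosen after the values were seen.

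Many members differed from another member by 1 base. In all, 44 of the 50 had such a neighbour, and the pairs numbered 45, which is 3.67% of the 1225 pairs the members can form, against 0.96% over all elements (4845 of 504510). They formed 11 clusters, of which the largest held 13 reversed elements and the next held 12 elements with GG at bases 2 and 3. Members within a cluster share most of their bases and are not independent of each other.

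The libraries held 11235321 to 25127959 reads. Members had medians of 9309 to 19601 reads per library and all elements 10218 to 23829, and the lowest count of a member in any library was 4106. Replicate spread is used throughout, because reads of PCR amplicons may be copies of the same molecules.

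The choosing levels ran from 2.11% to 2.50% over the members, with a median of 2.22%, against a median of 1.88% over all elements. The median SD of a member over the 6 libraries was 0.219 percentage points. The edge of the list was not sharp. Ranks 48 to 50 were ATAGATGT (2.114%), ACATATGT (2.111%) and ATAGATGA (2.108%), and ranks 51 to 53 were CGTATATG (2.108%), TGTAAGAT (2.107%) and ATATGCAT (2.107%). In 45 of the 50 members all 6 libraries were above their own library's median. The non-induced fusion and ADARcdMUT alone, each ranked by itself, shared 27 of their 50 highest elements, which is 54.0% of each list. The 50 highest of the non-induced libraries had a median log2 odds of editing 0.20 above the library median in the ADARcdMUT libraries, where 48 of 50 were above it. The 50 highest of the ADARcdMUT libraries were 0.20 above it in the non-induced libraries, where 42 of 50 were above it.

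The members' median level was 2.06%, 2.27% and 2.13% in the 3 non-induced libraries, 4.51%, 4.83% and 4.44% at 25 ng, 7.97%, 8.12% and 8.27% at 250 ng, and 2.33%, 2.32% and 2.12% with ADARcdMUT alone. The medians of all 1005 elements in the same libraries were 1.73%, 1.93% and 1.81% without induction, 4.26%, 4.57% and 4.20% at 25 ng, 7.78%, 7.87% and 7.97% at 250 ng, and 2.06%, 1.96% and 1.82% with ADARcdMUT alone. The members' median was the higher in each of the 12 libraries.

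In percentage points the members' median stood 0.328 ± 0.0109 (SD, n = 3) above the library median without induction, 0.245 ± 0.0147 above it at 25 ng, 0.245 ± 0.0524 at 250 ng, and 0.314 ± 0.0482 with ADARcdMUT alone. As log2 odds the same distances were 0.24 ± 0.01 without induction, 0.08 ± 0.00 at 25 ng, 0.05 ± 0.01 at 250 ng and 0.22 ± 0.03 with ADARcdMUT alone. On both scales the distance was smaller in the induced libraries. Between 25 ng and 250 ng it was the same in points and smaller at 250 ng as log2 odds. The values without induction and with ADARcdMUT alone chose the members and are high by construction, so these distances were not tested against each other.

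The higher level lay in how many reads were edited. In members a median of 8.07% ± 0.0925 of reads carried an edit without induction, 14.7% ± 0.0770 at 25 ng, 23.1% ± 0.460 at 250 ng and 8.36% ± 0.441 with ADARcdMUT alone (SD, n = 3 each). Over all elements these shares were 6.99% ± 0.118 without induction, 13.8% ± 0.102 at 25 ng, 22.3% ± 0.402 at 250 ng and 7.18% ± 0.339 with ADARcdMUT alone. The edits per edited read differed little: 1.87 ± 0.109 in members and 1.83 ± 0.0777 over all elements without induction, and 2.46 ± 0.0151 and 2.48 ± 0.0176 at 250 ng.

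The highest choosing level was that of ATAGCTGT, a reversed element with A5C. It was at 2.42%, 2.40% and 2.42% without induction, 4.62%, 5.27% and 4.69% at 25 ng, 8.45%, 8.52% and 8.57% at 250 ng, and 2.37%, 3.11% and 2.30% with ADARcdMUT alone. It was above the library median in all 12 libraries. ATTGATGT, with A3T, followed at 2.23%, 2.73% and 2.29% without induction, 4.59%, 4.65% and 4.36% at 25 ng, 7.80%, 7.78% and 7.98% at 250 ng, and 2.84%, 2.32% and 2.52% with ADARcdMUT alone. At 250 ng its 3 values lay around the library medians, above in 2 libraries and below in 1.

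TGGATATA, the only single substitution (T3G), was at 2.23%, 2.23% and 2.30% without induction, 4.73%, 4.40% and 4.71% at 25 ng, 8.08%, 8.15% and 8.01% at 250 ng, and 3.0%, 2.30% and 2.29% with ADARcdMUT alone. It had the fewest reads of any member in a library (4106), and that library is the one with the 3.0%. TGTGTGTG was at 2.34%, 2.54% and 2.28% without induction, 4.62%, 4.82% and 4.55% at 25 ng, 8.06%, 8.19% and 7.90% at 250 ng, and 2.62%, 2.29% and 2.35% with ADARcdMUT alone. The 4 consensus elements were no members and ranked 642, 741, 837 and 963 of 1005 by the choosing level. The last of these was TGTATATA, with 1.81% ± 0.186 without induction, 7.28% ± 0.593 at 25 ng, 13.9% ± 0.360 at 250 ng and 1.60% ± 0.204 with ADARcdMUT alone (SD, n = 3 each).

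The first question for the induced libraries was whether a member kept its place above the library median. Each element's log2 odds, centred on the library median, was tested against 0 with limma in the 6 induced libraries, with adjustment over all 1005 elements. At 250 ng, 14 of the 50 members passed above the library median, 1 passed below, and 35 did not pass. The background was 19.1% of all elements above and 9.15% below. At an unadjusted p under 0.05, 18 members were above and 2 below, and 386 of all 1005 elements passed in either direction. At 25 ng, 25 members passed above and 0 below (background 17.7% above and 12.4% below). There, 30 members were above and 0 below at an unadjusted p under 0.05, and 423 of all 1005 elements passed in either direction. The members' share that passed above the median was 28.0% at 250 ng, nearer to its background than the 50% at 25 ng. The counts that passed above the median were 8 at 250 ng without fusion 250 ng replicate 1 (background 13.7%) or replicate 3 (background 13.4%). With all 12 libraries in the fit they were 4 at 250 ng (background 10.2%) and 5 at 25 ng (background 9.05%), which is near the background at both amounts. That fit tests the same levels but takes its spread from the choosing libraries as well. Of the 25 members called at 25 ng, 11 (44.0%) were also called at 250 ng, and these were 78.6% of those called at 250 ng. Over all elements 142 were called at both amounts, which is 79.8% of the 178 called at 25 ng and 74.0% of the 192 called at 250 ng. The difference between these shares was not tested. Counted by libraries alone, all 3 were above the library median for 29 members at 250 ng and all 3 below for 6 (34.1% and 33.4% of all elements), and for 34 and 1 at 25 ng (26.5% and 24.7%).

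By rank of the mean level, 1 member was among the 50 highest elements at 250 ng and 2 were at 25 ng. The 251 highest elements held 21 members at 250 ng and 34 at 25 ng. The median rank of a member was 285 at 250 ng and 172 at 25 ng, of 1005.

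The members farthest above the library median at 250 ng were the 4 with TGTA outside the TGG and reversed sets. TGTATAGC, with T7G and A8C, was at 2.13%, 2.52% and 2.05% without induction, 5.35%, 5.80% and 5.42% at 25 ng, 9.69%, 9.75% and 10.04% at 250 ng, and 2.47%, 2.09% and 2.13% with ADARcdMUT alone. It was above the library median by 0.35 log2 odds at 250 ng (SE 0.023, limma adjusted p = 2.18e-07) and by 0.36 at 25 ng (SE 0.023, limma adjusted p = 2.28e-07). TGTAAAGC, which shares both changes and differs only at base 5, was at 1.85%, 2.40% and 2.16% without induction, 4.92%, 5.12% and 4.95% at 25 ng, 9.22%, 9.30% and 8.9997% at 250 ng, and 2.30%, 2.22% and 1.90% with ADARcdMUT alone. Its distance was 0.24 at 250 ng (limma adjusted p = 2.04e-05) and 0.21 at 25 ng (limma adjusted p = 7.23e-05).

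The other two carry TGTA away from the start of the element. In TGTGTGTA (A4G and A6G) it fills bases 5 to 8, and in TGTGTACA (A4G and T7C) bases 3 to 6. TGTGTGTA was at 2.22%, 2.65% and 2.42% without induction, 5.14%, 5.47% and 5.24% at 25 ng, 8.95%, 9.37% and 9.37% at 250 ng, and 2.53%, 2.47% and 2.35% with ADARcdMUT alone, which was 0.25 above the library median at 250 ng (limma adjusted p = 7.56e-06). TGTGTACA was at 1.83%, 2.25% and 1.96% without induction, 4.77%, 5.46% and 4.84% at 25 ng, 8.94%, 9.19% and 9.28% at 250 ng, and 2.29%, 2.48% and 2.11% with ADARcdMUT alone, which was 0.23 above it at 250 ng (limma adjusted p = 2.09e-05). Its non-induced value in replicate 1 lay near the library median of 1.73%, and its 3 values at 250 ng were over 1 point above the library medians.

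TGTGTGTG and TGTGTGTA differ only at base 8, where the change to A completes TGTA. At 250 ng TGTGTGTA averaged 9.23% ± 0.244 and TGTGTGTG 8.05% ± 0.144 (SD, n = 3 each), with no overlap between their libraries, whereas without induction they averaged 2.43% ± 0.215 and 2.38% ± 0.138, with overlapping libraries. TGTGTGTG was 0.03 above the library median at 250 ng (limma adjusted p = 0.341) and 0.11 at 25 ng (limma adjusted p = 0.0067). This pair was chosen after its values were seen and was not tested. The fifth member with TGTA, TGGATGTA, holds it at bases 5 to 8 as well and averaged 8.20% ± 0.321 at 250 ng, 0.06 above the library median (limma adjusted p = 0.203).

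In the TGG set (16 members outside the reversed family) the median distance was 0.07 log2 odds at 250 ng and 0.10 at 25 ng. There, 4 members passed above the library median at 250 ng and 10 at 25 ng, and 0 passed below at either amount (background 19.1% above at 250 ng and 17.7% at 25 ng). Of all 81 elements with TGG, members included, 8 passed above and 2 below at 250 ng, and 13 above and 2 below at 25 ng. All 16 lay above it at 250 ng and 15 at 25 ng, the exception being TGGGTATA (-0.01, limma adjusted p = 0.797). TGGATATT was at 8.38%, 8.28% and 8.69% at 250 ng and 4.54%, 4.99% and 4.40% at 25 ng, which was 0.11 above the library median at 250 ng (limma adjusted p = 0.0052). The other members of this set that passed above it at 250 ng were TGGATATC (0.10, limma adjusted p = 0.0116), TGTTGGTA (0.09, limma adjusted p = 0.0490) and TGGATAAA (0.08, limma adjusted p = 0.0369).

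Of the 15 reversed members 5 passed above the library median at 250 ng and 7 at 25 ng, and 0 passed below (background 19.1% above at 250 ng and 17.7% at 25 ng). Of the 88 reversed elements of the library, members included, 8 passed above and 7 below at 250 ng, and 10 above and 5 below at 25 ng. ATAGTTGT (A5T) was the highest of them at 250 ng, with 8.37%, 8.71% and 8.78%, against library medians of 7.78%, 7.87% and 7.97%, a distance of 0.14 (limma adjusted p = 0.00294). ATAGCTGT (0.12), ATAGACGT (0.12), ATGGATGT (0.09) and ATAGATGG (0.07) also passed. ATATGTGT, which ranked 3 by the choosing level, was at 7.68%, 7.82% and 7.77% at 250 ng, below the library median in all 3 libraries, and at 4.44%, 4.83% and 4.60% at 25 ng, above it in all 3. Its distance was -0.02 at 250 ng (limma adjusted p = 0.507) and 0.09 at 25 ng (limma adjusted p = 0.0129). ATACGTGT was 0.01 above the library median at 250 ng (limma adjusted p = 0.905).

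The remaining 15 members had a median distance of 0.01 at 250 ng and 0.05 at 25 ng. GGCAGATA (T1G and T3C) was the only one of them that passed above the library median at 250 ng in the limma fit, at 8.43%, 8.56% and 8.79% (0.14, adjusted p = 0.00112), and it was chosen for mention after this was seen. TGTTCAGA (A4T and T7G) was the only member that passed below it at 250 ng, while 11 members had estimates below 0 there. It was at 2.12%, 2.25% and 1.94% without induction, 4.50%, 4.67% and 4.33% at 25 ng, 7.17%, 7.69% and 7.40% at 250 ng, and 2.30%, 2.33% and 1.85% with ADARcdMUT alone. It was above the library median in all 6 choosing libraries and in all 3 at 25 ng, and below it in all 3 libraries at 250 ng, by 0.09 log2 odds (SE 0.026, limma adjusted p = 0.018), a call that was lost without fusion 250 ng replicate 1 or 3, with the share of reads edited and with all 12 libraries in the fit. TGTCCAGA, which differs from it only at base 4, was at 7.69%, 7.42% and 7.46% at 250 ng (distance -0.07, limma adjusted p = 0.108). TCTAAAGA and TCTATAGA, which also end in AGA with T7G, and ATAGATGA were the other low members at 250 ng, with means of 7.63% ± 0.0940, 7.66% ± 0.206 and 7.62% ± 0.0720, distances of -0.05, -0.04 and -0.05, and no call. These traits were not limited to low members. TGGATAGA also ends in AGA with T7G and was above the library median in all 3 libraries at 250 ng (0.01, limma adjusted p = 0.697). TGTATAGC and TGTAAAGC, among the farthest above at 250 ng (0.35 and 0.24), carry T7G too. CGGATATA, with 7.82%, 7.94% and 8.31% at 250 ng, was 0.03 above the library median there (limma adjusted p = 0.605).

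The step in amount was tested in the same 6 induced libraries. From the fit of 250 ng against 25 ng all 50 members were higher at 250 ng and 0 lower (background 100% and 0%). The members' levels at 250 ng were 1.65 to 1.92 times those at 25 ng, with a median of 1.77, against a median of 1.82 over all elements. As log2 odds the median change was 0.88 in the members and 0.92 over all elements. Relative to the library median, limma called 0 members higher and 0 lower (background 0% and 0%), with 1 higher and 7 lower at an unadjusted p under 0.05 and 77 such elements in the whole library. The smallest adjusted p was 0.54. The estimates were below 0 for 39 of the 50 members and above 0 for 11, while 58.1% of all elements were above 0.

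The relative step depends on the scale. On percent edited as a linear scale, TGTATAGC (0.773 points), TGTAAAGC (0.649), TGTGTACA (0.584) and ATGGATGT (0.469) gained more than the library median from 25 ng to 250 ng, and TGTTCAGA (-0.611) and TGTCCAGA (-0.514) gained less (limma adjusted p = 0.0451 at most). This scale called 10.8% of all elements higher and 1.49% lower, against 4 and 2 of the 50 members. On the arcsine square root scale TGTTCAGA passed, downward, and was the only member to do so (background 4.38% higher and 0.0995% lower).

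Against no induction the members' levels at 250 ng were 3.25 to 4.54 times as high, with a median of 3.80, compared with a median of 4.34 over all elements, and 48 of the 50 lay below that median. At 25 ng the median was 2.13, compared with 2.38 over all elements, and 47 of 50 lay below. The gain in points was nearer: a median of 5.97 points in members and 6.02 over all elements at 250 ng, and 2.43 and 2.50 points at 25 ng. The lowest ratio at 250 ng was that of ATTGATGT (3.25) and the highest that of TGTGTACA (4.54). Over ADARcdMUT alone, the median ratio of the members was 3.51 at 250 ng and 1.999 at 25 ng, and that of all elements 4.06 and 2.23. The non-induced and ADARcdMUT values stand in the denominator of these ratios and also chose the members, which lowers the ratios by construction. The gains in points subtract the same non-induced values and are lowered by construction too, so no test is given for either.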

How the data were processed

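The data are 12 deposited tables, 1 per library, from PCR amplicons of the recorder 3′ UTR, per the labels. The authors deposited counts per element (reads, reads with at least 1 edit, edits summed over reads), a percent of all reads, a percent edited and an efficiency score. Recomputed from the counts within 1e-09, the deposited percent edited is edits over 7 times the reads, and the score is edits per read multiplied by the fraction of reads edited. The aligner, the caller of edits and any filter are not given in the sources used, and the extraction text of the labels names zebrafish embryos where the cell line is HEK293T. Of 1022 elements in any library, 1006 were listed in all 12, of which 1005 have 8 bases. The lowest listed count is 1015 reads.

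The tested value was log2((edits + 0.5)/(7 × reads − edits + 0.5)), minus its library median where stated. Limma 3.58.1 in R 4.3.3 (lmFit, eBayes with trend) was fitted on the 6 induced libraries for 1005 elements, with Benjamini-Hochberg adjustment and 0.05 as the threshold. The fit was tested on simulated data. The members and feature lists were chosen with earlier results of these data known. Elements named are the 10 highest by the choosing level, the 5 highest and 5 lowest at 250 ng, ranks 48 to 53, and consensus elements as a comparison. Any other element named was chosen after its values were seen. The tables used Python 3.11.15 with pandas 2.3.3. Same-numbered replicates did not deviate together, so no block was used.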

Additional observations from a re-analysis of the deposited data

How the results depend on the processing

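Of 148 recomputed counts and median distances, 119 stayed within 1.5 times the reported count or within replicate spread, not always calling the same members. At 250 ng 9 counts below the median and 4 above changed, and 5 median distances at each amount. TGTATAGC, TGTAAAGC, TGTGTGTA and TGTGTACA were above the library median at 250 ng in all 15 settings that kept the member list, and these 4 with TGTTGGTA at 25 ng. Step counts had little room to change, as every fit called all elements higher at 250 ng (46 members at a minimum of 5000 reads). Most called 0 in the relative step.

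The fit on all 12 libraries left 4 members above and 0 below the library median at 250 ng (background 10.2% and 0.697% of all elements). At 25 ng it left 5 above (background 9.05%). On percent edited as a linear scale 21 members were above and 4 below the median at 250 ng (background 25% and 20%). On that scale 19 were above at 25 ng (background 15.2%). In its relative step 4 gained more and 2 less than the median (background 10.8% and 1.49%). The arcsine square root scale gave 18 above and 2 below at 250 ng (background 22.8% and 14.9%). It gave 24 above at 25 ng (background 17.1%) and 1 lower in the relative step (background 0.0995%). The share of reads edited gave 20 above and 0 below at 250 ng (background 15.1% and 6.07%) and 34 above at 25 ng (background 16.6%). Centring on elements without TGT gave 15 above at 250 ng (background 22%) and 33 at 25 ng (background 23%). The 50 highest by ADARcdMUT alone included 0 below at 250 ng (background 9.15%) and 1 below at 25 ng (background 12.4%). Counting members with all 3 libraries on 1 side was chosen after seeing the data. It gave 29 above and 6 below at 250 ng (background 34.1% and 33.4%) and 1 below at 25 ng (background 24.7%). Leaving out 1 library gave 8 to 17 members above (background 13.4% to 23.3%) and 0 to 2 below (background 2.59% to 16.1%) at 250 ng. At 25 ng it gave 21 to 29 above (background 16.3% to 19.2%).

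The members' median distance was 0.05 log2 odds at 250 ng and 0.08 at 25 ng. At 250 ng it was 0.037 for the 50 highest by non-induced alone, 0.061 for the 25 highest, 0.026 for the 100 highest, 0.073 for the share of reads edited and 0.063 when centred on elements without TGT. At 25 ng it was 0.068 for the 50 highest by non-induced alone, 0.11 for the 25 highest, 0.050 for the 100 highest, and 0.10 both for the share of reads edited and when centred on elements without TGT. With the replicate number as a block, 10 members were above and 1 below at 250 ng (background 17.8% and 7.46%). With that block 24 were above at 25 ng (background 17.4%), with no change in either step. Deviations of same-numbered 250 ng and 25 ng libraries correlated at -0.09, -0.03 and -0.06, which gave no sign of pairing by number. Values were centred on library medians first, so a shift shared by whole libraries would not show, and the other groups were not checked. The low read counts of some members limit single values: 4 members had under 5000 reads in a library.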
